A study of Homo sapiens with 27 samples.

Results

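The genes for the proteins of the mitochondrial ribosome were followed through 5 states of IMR90 cells, a line of normal human lung fibroblasts with a finite lifespan, by RNA-seq of total mRNA and by Ribo-seq of the mRNA pieces that cytosolic ribosomes protect. A gene was a member if it was protein coding and its symbol was MRPL or MRPS followed by a number and at most 1 letter. This rule found 78 genes among 19307 protein-coding genes (60534 gene identifiers in all), 49 with an MRPL symbol and 29 with an MRPS symbol. By the structural names in RefSeq, 75 of the 78 are ribosomal proteins with a systematic name, and MRPS18A (mL66) and MRPS30 (mL65) sit in the large subunit in spite of their symbols, so that 51 members were counted as large subunit and 27 as small. MRPS24, MRPS28 and MRPS36 have no such name in that table and were counted by their symbols; RefSeq lists MRPS36 as KGD4, a component of the 2-oxoglutarate dehydrogenase complex, so it is a member by the rule and not by that name. By the first letter of that name, 44 of the 75 were classed as having bacterial homologues and 31 as specific to mitochondria. This naming rule puts MRPS18A (mL66) and MRPS18B (mS40) in the second class and their paralogue MRPS18C (bS18m) in the first.

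All cells were wild-type IMR90 grown in high-glucose DMEM with 10% serum and non-essential amino acids. Cycling cells were harvested below confluency (2 RNA-seq and 3 Ribo-seq libraries). Quiescent cells were arrested by contact inhibition (3 and 3 libraries). Irradiated cells received 15 Gy and were harvested after 10 days, and etoposide cells received 50 µM of etoposide, a topoisomerase II poison that breaks DNA, 3 times over 10 days; both treatments are used to induce senescence, a lasting arrest of the cell cycle (3 and 3 libraries each). Thapsigargin cells were cycling cells treated for 3 h with 25 nM of thapsigargin, a blocker of the SERCA calcium pump and so a trigger of endoplasmic reticulum stress (2 and 2 libraries). One label field calls all 4 thapsigargin libraries footprints, against the titles of 2 of them, and the titles were used. Each state comes from this 1 line of cells, and the labels do not say whether replicates are separate cultures, so p-values measure the spread between these libraries, which may be technical. In bulk samples, fewer expressing cells and less RNA per cell cannot be told apart.

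The mitochondrial ribosome makes the few proteins encoded by mitochondrial DNA, all of them core parts of the respiratory chain and ATP synthase. Its RNAs are made inside the organelle, but all of its proteins are encoded in the nucleus, translated in the cytosol and imported. Compared with its bacterial ancestor it has lost rRNA and gained protein, and the large subunit is fixed to the inner membrane, into which its products are inserted. The footprints described here therefore report how cytosolic ribosomes made the members, not what mitochondrial ribosomes translated.

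Libraries held 20635503 to 57119841 gene counts in RNA-seq and 1936976 to 19996104 in Ribo-seq, of which 76853 to 193728 and 10190 to 110744 were on members. The shallowest Ribo-seq libraries were the thapsigargin (1936976 and 2044900) and irradiated ones (2652013 to 5556293), against 9874835 to 14439646 in cycling cells. Levels below are CPM, a gene's share of all counts on the tested protein-coding genes of its library, after TMM scaling (a correction for library composition). Fibroblast markers summed to 9101 to 14706 CPM in RNA-seq, against at most 2.62 CPM for endothelial and 2.96 CPM for blood markers in either library type. The 5 epithelial markers summed to 15.5 to 111 CPM in RNA-seq and 15.1 to 174 CPM in Ribo-seq. Of these EPCAM stayed at or below 1.14 CPM and KRT5 was at 0 in all Ribo-seq libraries. KRT19 was at 89.0 and 96.3 CPM in thapsigargin RNA-seq against 21.8 and 15.4 CPM in cycling cells, and its part in the results was not tested. The cell-cycle inhibitor CDKN1A was at 2433 to 2863 CPM in irradiated and 2865 to 3182 CPM in etoposide RNA-seq, against 775 and 824 CPM in cycling cells, and the lamin gene LMNB1 was at 6.26 to 6.71 and 3.94 to 4.61 CPM against 82.7 and 69.7 CPM. Quiescent replicate 2 stood apart: the proliferation marker MKI67 was at 148 CPM there in RNA-seq, inside the cycling range of 144 to 167 CPM, while the other two quiescent libraries held 41.3 and 53.4 CPM. Thapsigargin libraries also differed in the share of unmapped reads (1.35% to 1.40% against 27.8% to 40.6% in the other RNA-seq libraries), in multimapping Ribo-seq reads (65.2% to 66.9% against 19.8% to 31.9%) and in a medium without antibiotic. Their Ribo-seq reads were counted on a list of 62703 gene identifiers, as was all RNA-seq. The other 12 Ribo-seq libraries were counted on 60664, so treatment, batch and gene list cannot be told apart in Ribo-seq. In RNA-seq, treatment cannot be told apart from batch, medium and mapping either.

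Every member was listed in every library. A test was possible for 77 members in RNA-seq and 75 in Ribo-seq; MRPL53 had too few counts in both, and MRPL38 and MRPS17 in Ribo-seq. MRPL53 had 0 counts in cycling RNA-seq, which allows at most 0.06 CPM. Over the 4 states without thapsigargin, MRPS16 (152 CPM), MRPL51 (134 CPM) and MRPL3 (130.5 CPM) had the highest mean RNA-seq levels, and MRPL51 (245 CPM), MRPL52 (236 CPM) and MRPL3 (183 CPM) the highest Ribo-seq levels; these values are not divided by gene length, so they do not rank molecules. 11 members had a mean under 5 CPM in at least 1 library type. Among them 4 differed over 10 times between the library types: MRPL30 (57.9 CPM in RNA-seq, 1.57 CPM in Ribo-seq) and MRPS17 (8.50 and 0.11 CPM) were low in Ribo-seq, and MRPS5 (1.29 and 70.8 CPM) and MRPS28 (1.87 and 26.5 CPM) were low in RNA-seq. The part of the gene lists in those gaps was not tested. Pseudogenes of 36 members were listed under 79 identifiers of their own. Summed over all members they held at most 0.05% of member counts in RNA-seq and 0.24% in Ribo-seq. For single members the Ribo-seq share was larger: pseudogene counts came to 386% of the gene's own for MRPL30, 25.0% for MRPS17 and 6.46% for MRPS31. The part of pseudogenes in the gaps of MRPL30 and MRPS17 was not tested.

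Summed over all 78 members, Ribo-seq levels were highest in cycling cells. The 3 cycling Ribo-seq libraries summed to 5696, 5600 and 5693 CPM, the quiescent to 5244, 5103 and 4899 CPM, the irradiated to 5178, 5277 and 5364 CPM and the etoposide to 4893, 4941 and 5039 CPM. All 9 libraries of these 3 arrested states were below all 3 cycling libraries, and the thapsigargin libraries (5629 and 5317 CPM) spanned the gap. The mean was 5663 ± 54.7 CPM (SD, n = 3) in cycling and 4958 ± 74.7 CPM (SD, n = 3) in etoposide cells. In RNA-seq the 2 cycling libraries (4213 and 3988 CPM) overlapped with the quiescent (4045, 3516 and 3805 CPM) and the irradiated (3669, 4061 and 3779 CPM) libraries, and lay above the etoposide (3885, 3856 and 3700 CPM) and thapsigargin ones (3900 and 3403 CPM). The sum is dominated by the abundant members and is given as a description.

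**Figure D1:**
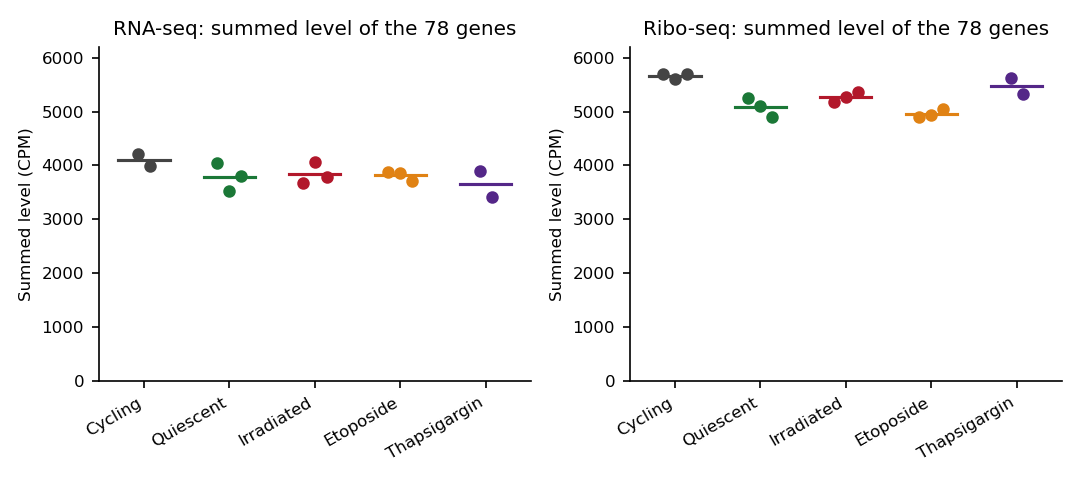
Summed level of the 78 members in each library (y axis, CPM; left RNA-seq, right Ribo-seq) for the 5 states on the x axis; points are libraries. In Ribo-seq the cycling libraries (5600 to 5696 CPM) sit above the quiescent, irradiated and etoposide libraries (4893 to 5364 CPM). In RNA-seq the cycling libraries overlap with the quiescent and irradiated ones and sit above the etoposide and thapsigargin ones.

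In irradiated cells, compared with cycling cells, the members moved in small steps, and most of the called members fell. In RNA-seq 3 of 77 members rose and 11 fell, a share of 18.2% against 34.9% called among all genes tested (called means a Benjamini-Hochberg adjusted p under 0.05 in edgeR's quasi-likelihood test, adjusted over all genes; 16.2% of all genes rose and 18.8% fell). In Ribo-seq 2 of 75 rose and 18 fell, a share of 26.7% against 39.8% of all genes (17.2% higher, 22.6% lower). Members called lower were 14.3% in RNA-seq and 24.0% in Ribo-seq, below and near the shares of all genes. Members called higher were 3.90% and 2.67%, below those shares in both library types. The members' median log2 fold change was -0.08 in RNA-seq and -0.07 in Ribo-seq, against 0.03 and -0.01 over all genes. Without cycling replicate 1 or 2 the RNA-seq count was 2 or 5 members, and without irradiated replicate 1, 2 or 3 it was 8, 9 or 6. The Ribo-seq count was 13 without cycling replicate 2, 12 without irradiated replicate 3 and 32 without thapsigargin replicate 1, which is in neither group compared but is part of the fit over all 5 states.

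Etoposide cells showed the same lean with more calls. In RNA-seq 5 of 77 members rose and 13 fell (23.4% against 34.5% of all genes, 16.8% higher and 17.8% lower). In Ribo-seq 2 of 75 rose and 25 fell; the share called, 36.0%, was near that of all genes, 34.0%, but 33.3% of members fell against 17.6% of all genes, and 2.67% rose against 16.4%. Medians were -0.14 in RNA-seq and -0.18 in Ribo-seq, against 0.00 and -0.01 over all genes. The RNA-seq count was 9 without cycling replicate 1 and 10 without replicate 2, and the Ribo-seq count was 17 without etoposide replicate 2. Both subunits took part: in Ribo-seq 17 large-subunit members fell and 1 rose (median -0.22), and 8 small-subunit members fell and 1 rose (median -0.10). Members classed by name as bacterial homologues and as mitochondria-specific had medians of -0.18 and -0.22.

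**Figure D2:**
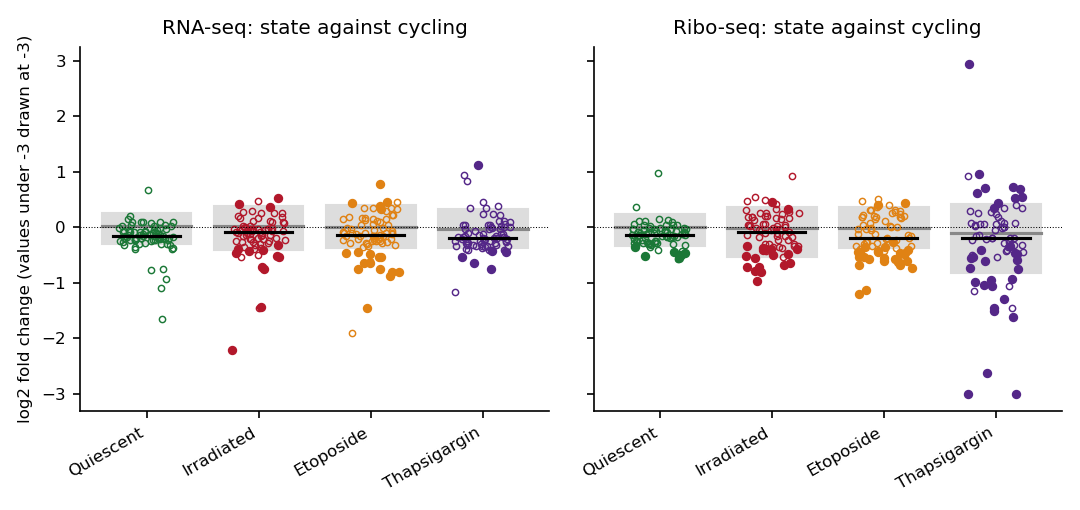
Log2 fold change of each tested member against cycling cells (y axis) in 4 states (x axis), left RNA-seq and right Ribo-seq; filled points are called by edgeR, open points are not, the black line is the members' median, and the grey box and line give the quartiles and median of all genes tested. Filled points lie mostly below 0 in irradiated and etoposide Ribo-seq (18 of 20 and 25 of 27 calls).

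Irradiated and etoposide cells were compared with the same cycling libraries, so their lists are not independent. The members described first are those called in the same direction in both library types in both states, a rule met by 7 of 75 members (9.33%) and 14.9% of all genes tested in both types (8.03% lower, 6.86% higher). Of these MRPL11, MRPL48, MRPL3, MRPL15, MRPS15 and MRPS27 fell, 8.0% of members and near the share of all genes. MRPL55 rose, 1.33% of members and below that share. Across members the RNA-seq and Ribo-seq fold changes had r = 0.50 in irradiated and r = 0.63 in etoposide cells (both 0.78 over the 67 members at 5 CPM or more in both types); members are not independent replicates and shared scaling enters both.

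Among large-subunit members, MRPL11 (uL11m, at the base of the stalk where translation factors dock; ENSG00000174547) had RNA-seq levels of 65.1 and 67.0 CPM in cycling cells, 63.4, 54.5 and 59.4 CPM in quiescent, 41.9, 51.6 and 42.7 CPM in irradiated, 40.9, 37.3 and 34.8 CPM in etoposide and 53.7 and 50.3 CPM in thapsigargin cells. Its Ribo-seq levels were 43.9, 41.3 and 41.5 CPM in cycling, 30.8, 33.8 and 35.0 CPM in quiescent, 21.6, 22.3 and 29.7 CPM in irradiated, 18.7, 21.3 and 17.7 CPM in etoposide and 50.7 and 31.3 CPM in thapsigargin cells. Neither senescent state overlapped with cycling cells in either library type. Its log2 fold change (± SE throughout) was -0.54 ± 0.13 in irradiated RNA-seq (edgeR adjusted p = 0.00461) and -0.81 ± 0.13 in etoposide RNA-seq (edgeR adjusted p = 0.000241). Its footprints fell by 0.79 ± 0.18 and 1.13 ± 0.17 on the log2 scale (edgeR adjusted p = 0.00289 and 0.000197). All 4 calls held under every alternative run.

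MRPL48 (mL48, a mitochondria-specific protein of the central protuberance) was the member with the largest footprint fall in both senescent states. Ribo-seq levels were 43.1, 43.8 and 41.8 CPM in cycling, 29.0, 32.2 and 28.7 CPM in quiescent, 20.9, 27.6 and 18.6 CPM in irradiated, 15.9, 19.3 and 21.0 CPM in etoposide and 32.1 and 29.2 CPM in thapsigargin cells. The 2 senescent states lay below every quiescent library, and quiescent below every cycling library. Changes against cycling were -0.96 ± 0.16 in irradiated and -1.19 ± 0.16 in etoposide cells (edgeR adjusted p = 0.000361 and 4.99e-05), and both held under every alternative. In RNA-seq it was at 29.6 and 25.2 CPM in cycling, 18.6, 21.1 and 20.1 CPM in irradiated and 16.0, 16.0 and 15.3 CPM in etoposide cells, again without overlap. The etoposide change of -0.80 ± 0.15 (edgeR adjusted p = 0.00125) held throughout; the irradiated change of -0.46 ± 0.15 (edgeR adjusted p = 0.0316) was lost without any 1 of the cycling or irradiated libraries, with no low-count filter and with the replicate block.

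MRPL3 (uL3m, a core protein near the peptidyl transferase centre) is among the most abundant members. RNA-seq levels were 182 and 166 CPM in cycling, 154, 127 and 172 CPM in quiescent, 103, 107 and 111 CPM in irradiated, 114, 100 and 98.9 CPM in etoposide and 157 and 118 CPM in thapsigargin cells. The senescent libraries were lower than all others. It fell by 0.70 ± 0.15 and 0.74 ± 0.15 in irradiated and etoposide RNA-seq (edgeR adjusted p = 0.00211 and 0.00156), and by 0.60 ± 0.12 in etoposide Ribo-seq (edgeR adjusted p = 0.002), under every alternative. In irradiated Ribo-seq it fell by 0.39 ± 0.12 (edgeR adjusted p = 0.0217), a call lost without cycling replicate 1 or 2 or irradiated replicate 3.

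MRPL15 (uL15m), MRPL9 (bL9m), MRPL27 (bL27m, whose bacterial homologue reaches into the peptidyl transferase centre) and MRPL1 (uL1m, of the stalk through which spent tRNA leaves) were lower in etoposide footprints as well. MRPL15 Ribo-seq levels were 91.9, 84.5 and 93.6 CPM in cycling, 59.2, 63.5 and 68.2 CPM in irradiated and 57.5, 61.8 and 58.0 CPM in etoposide cells, falls of 0.50 ± 0.11 and 0.61 ± 0.11 (edgeR adjusted p = 0.00223 and 0.000582). MRPL27 footprints were at 124, 131 and 144 CPM in cycling and 77.6, 81.6 and 89.0 CPM in etoposide cells, a fall of 0.68 ± 0.11 (edgeR adjusted p = 0.000249). Its RNA-seq levels lay close (63.0 and 56.9 CPM in cycling against 56.6, 55.5 and 51.6 CPM in etoposide cells), and the RNA-seq value of -0.14 ± 0.13 was not called. MRPL9 fell by 0.57 ± 0.12 (edgeR adjusted p = 0.00201) and MRPL1 by 0.67 ± 0.15 (edgeR adjusted p = 0.00322) in etoposide Ribo-seq. These etoposide footprint calls, and that of MRPL15 in irradiated cells, held under every alternative.

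Other functional sites of the large subunit differed. MRPL45 (mL45, the anchor to the inner membrane at the exit of the peptide tunnel) was at 48.1 and 46.7 CPM in cycling, 44.8, 38.8 and 39.6 CPM in irradiated and 32.4, 31.8 and 33.5 CPM in etoposide RNA-seq. In etoposide cells it fell by 0.54 ± 0.12 (edgeR adjusted p = 0.00354), under every alternative. MRPL58 (mL62, which keeps the fold of a peptidyl-tRNA hydrolase that frees stalled ribosomes) fell in Ribo-seq by 0.39 ± 0.12 in irradiated and 0.45 ± 0.11 in etoposide cells (edgeR adjusted p = 0.0148 and 0.00775); the first call was lost without cycling replicate 2 or irradiated replicate 3, the second without etoposide replicate 2. The stalk protein MRPL10 was at 59.6 and 67.1 CPM in cycling and 54.7 to 66.8 CPM in senescent RNA-seq and was not called in either state. Its partner MRPL12 lay at 0.721 to 3.28 CPM in cycling and irradiated libraries of both types, too low for a useful value. MRPS18A, a large-subunit protein by structure, had footprints of 53.9, 59.3 and 52.3 CPM in cycling and 33.9, 32.5 and 34.3 CPM in irradiated cells, a fall of 0.72 ± 0.14 (edgeR adjusted p = 0.00101) that was lost when counts on both strands were used; its paralogues MRPS18B and MRPS18C were not called in irradiated or etoposide cells, nor was MRPS30.

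Only 1 large-subunit member rose in both library types in both senescent states. MRPL55 (bL31m, which spans the subunit interface in bacteria) was at 19.0 and 17.7 CPM in cycling, 21.5, 21.8 and 15.8 CPM in quiescent, 22.0, 31.4 and 26.4 CPM in irradiated and 30.3, 34.1 and 30.3 CPM in etoposide RNA-seq. Ribo-seq levels were 51.7, 49.8 and 58.1 CPM in cycling, 62.3, 70.3 and 69.7 CPM in irradiated and 73.9, 69.7 and 67.0 CPM in etoposide cells. Both senescent states lay above cycling cells. The etoposide changes of 0.78 ± 0.18 in RNA-seq and 0.40 ± 0.11 in Ribo-seq (edgeR adjusted p = 0.00418 and 0.00943) held under every alternative. The irradiated changes of 0.53 ± 0.18 and 0.34 ± 0.11 (edgeR adjusted p = 0.0319 and 0.022) did not: the RNA-seq call was lost without cycling replicate 1 or 2 or irradiated replicate 2 or 3, and so was the Ribo-seq call, and also with no low-count filter. In etoposide RNA-seq MRPL17 (0.45 ± 0.12, edgeR adjusted p = 0.00898) and MRPL36 (0.45 ± 0.14, edgeR adjusted p = 0.02) rose too. Both calls were lost without cycling replicate 1 or 2 (MRPL36 also without etoposide replicate 2). MRPL49 rose in etoposide RNA-seq by 0.33 ± 0.12 (edgeR adjusted p = 0.0482), a call that did not hold under every alternative.

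In the small subunit, MRPS15 (uS15m, which binds the small-subunit rRNA early in assembly) was at 105 and 103 CPM in cycling, 77.0, 84.8 and 73.0 CPM in irradiated and 72.2, 70.8 and 72.3 CPM in etoposide RNA-seq. Footprints were at 97.3, 106 and 104 CPM, 72.5, 90.3 and 75.4 CPM, and 68.3, 68.3 and 71.0 CPM in the same states. No senescent library reached the cycling range. In etoposide cells the falls of 0.54 ± 0.11 (RNA-seq) and 0.57 ± 0.11 (Ribo-seq; edgeR adjusted p = 0.00276 and 0.00131) held under every alternative. In irradiated cells the falls of 0.41 ± 0.12 and 0.37 ± 0.11 (edgeR adjusted p = 0.0135 and 0.0161) were lost without cycling replicate 1 or 2 or irradiated replicate 3 in RNA-seq, and without cycling replicate 2 or 3 or irradiated replicate 1 or 3 in Ribo-seq.

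MRPS27 (mS27, a mitochondria-specific pentatricopeptide repeat protein) was at 133 and 127 CPM in cycling, 95.6, 98.7 and 97.2 CPM in irradiated and 82.6, 82.5 and 85.1 CPM in etoposide RNA-seq, falls of 0.42 ± 0.10 and 0.64 ± 0.10 (edgeR adjusted p = 0.00571 and 0.000275). The libraries of each state were closer to each other than the states were. The irradiated RNA-seq call was lost without cycling replicate 1. In Ribo-seq it fell by 0.38 ± 0.12 and 0.36 ± 0.12 (edgeR adjusted p = 0.021 and 0.0295), calls lost without cycling replicate 3 in both states, and also without irradiated replicate 2 or 3 in the first and without cycling replicate 2 or etoposide replicate 1 or 2 in the second.

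MRPS9 (uS9m, whose tail points to the tRNA in the peptidyl site) changed most among small-subunit footprints. Its Ribo-seq levels were 83.1, 76.8 and 62.7 CPM in cycling, 56.2, 59.0 and 46.9 CPM in quiescent, 43.0, 45.0 and 39.4 CPM in irradiated and 42.4, 43.0 and 49.6 CPM in etoposide cells. The cycling libraries were spread widely but lay above all quiescent, irradiated and etoposide libraries. The thapsigargin mean of 64.0 CPM was inside the cycling range. MRPS9 footprints fell by 0.81 ± 0.15 in irradiated and 0.72 ± 0.15 in etoposide cells (edgeR adjusted p = 0.000798 and 0.00169), under every alternative. MRPS28 footprints fell by 0.71 ± 0.15 in irradiated cells (edgeR adjusted p = 0.00229), under every alternative, and its RNA-seq levels were under 3 CPM in all cycling, quiescent, irradiated and etoposide libraries. MRPS10 (uS10m) had footprints of 50.7, 52.3 and 53.9 CPM in cycling, 65.3, 62.0 and 46.1 CPM in quiescent, 34.1, 31.7 and 41.7 CPM in irradiated and 38.0, 38.9 and 37.3 CPM in etoposide cells. Its irradiated fall of 0.54 ± 0.15 (edgeR adjusted p = 0.00925) held under every alternative, while RNA-seq was at -0.00 ± 0.15 and not called.

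MRPS21 (bS21m) was the small-subunit member whose footprints rose in both senescent states. Ribo-seq levels were 110, 116 and 129 CPM in cycling, 127, 106 and 112 CPM in quiescent, 158, 172 and 157 CPM in irradiated, 173, 153 and 154 CPM in etoposide and 184 and 183 CPM in thapsigargin cells. Cycling and quiescent libraries overlapped, and the other three states lay above both. The rises of 0.45 ± 0.10 in irradiated and 0.43 ± 0.10 in etoposide cells (edgeR adjusted p = 0.00274 and 0.00396) held under every alternative. In irradiated RNA-seq its rise of 0.37 ± 0.14 (edgeR adjusted p = 0.0477) was lost with RLE scaling, with no low-count filter and without any 1 cycling, irradiated or etoposide library. Reads of its 8 listed pseudogenes came to 0.54% of its Ribo-seq counts. MRPS33 rose in RNA-seq by 0.42 ± 0.14 in irradiated and 0.39 ± 0.14 in etoposide cells (edgeR adjusted p = 0.0334 and 0.0422). Neither of these MRPS33 calls held under every alternative. MRPS12, at the decoding centre, and MRPS16, MRPS22 and MRPS34 were not called in either senescent state in either library type. MRPS16 RNA-seq, for example, was at 168 and 156 CPM in cycling, 145, 171 and 156 CPM in irradiated and 151, 159 and 145 CPM in etoposide cells.

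**Figure D3:**
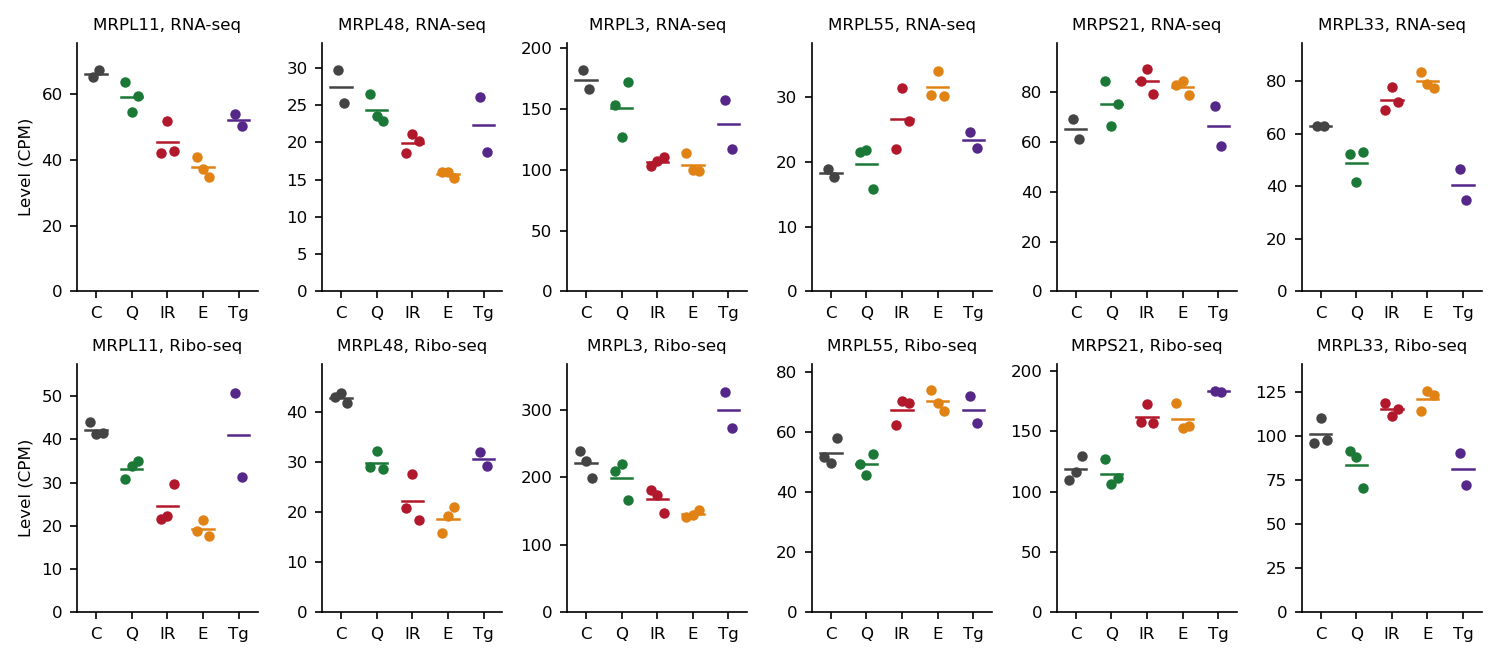
Level in each library (points, y axis in CPM, from 0) of members described in the text, RNA-seq and Ribo-seq panels side by side; the x axis gives cycling (C), quiescent (Q), irradiated (IR), etoposide (E) and thapsigargin (Tg) cells. MRPL11 and MRPL48 step down from cycling to etoposide cells and MRPL55 steps up.

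**Figure D4:**
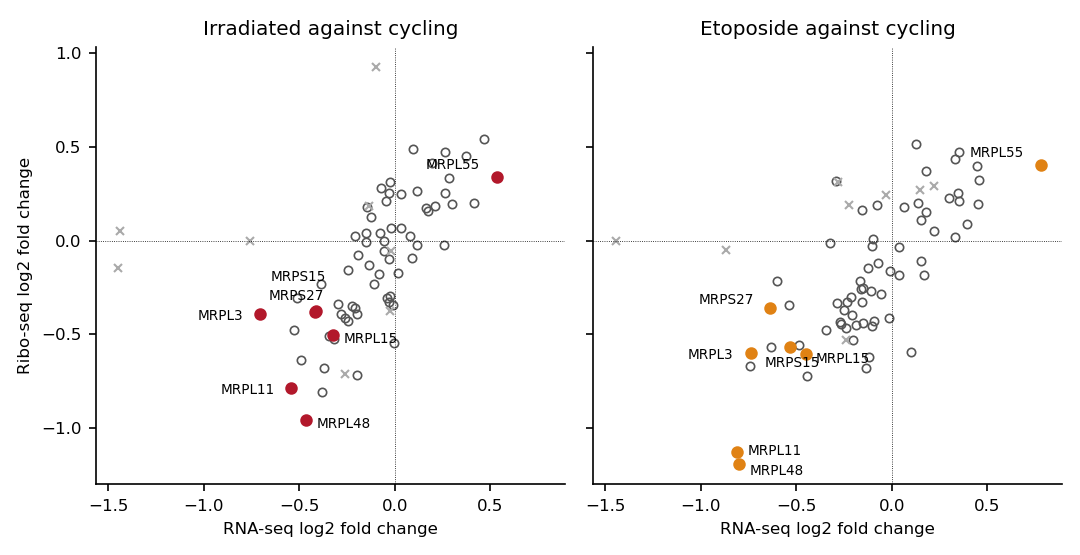
RNA-seq (x axis) against Ribo-seq (y axis) log2 fold change of each member, irradiated (left) and etoposide cells (right) against cycling cells; filled coloured points are the 7 members called in both types in both states, crosses are members under 5 CPM in either type. Of the 7, MRPL55 alone is in the upper right quadrant.

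MRPL38, MRPS24, MRPS5 and MRPL23 had the lowest RNA-seq fold changes in irradiated cells, on few reads. MRPS24, at 0.438 and 1.04 CPM in cycling and 0.152, 0.0782 and 0.55 CPM in irradiated cells, was not called (-1.45 ± 0.66, edgeR adjusted p = 0.103). MRPL38 was at 0.511 and 0.727 CPM in cycling and 0.0758, 0.313 and 0 CPM in irradiated cells. MRPS5 was at 3.07 and 1.66 CPM in cycling and 1.06, 0.86 and 0.707 CPM in irradiated RNA-seq, and its call was lost without cycling replicate 1. MRPL23 was at 9.75 and 11.0 CPM in cycling, 5.12, 8.37 and 4.91 CPM in irradiated and 5.59, 5.61 and 5.82 CPM in etoposide RNA-seq (-0.76 ± 0.22 and -0.87 ± 0.22, edgeR adjusted p = 0.0173 and 0.00815); the first call was lost without cycling replicate 1 or 2 or irradiated replicate 1 or 3, the second without cycling replicate 2. MRPS5 footprints were at 70.7, 72.7 and 69.5 CPM in cycling and 78.5, 71.8 and 69.7 CPM in irradiated cells, with full overlap.

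Promoter sequences were read for the members as a set and for single members called in the senescent states. RefSeq start sites gave 300-base windows (250 bases before to 50 after the start, GRCh38.p14) for 70 of the 78 members (not MRPL2, MRPL10, MRPL13, MRPL15, MRPL21, MRPL23, MRPL35 or MRPS28). The 150 bases before the start are printed for the members called in both library types in both senescent states other than MRPL15. The same stretch is printed for MRPS21, whose footprints rose in both senescent states. Each runs 5′ to 3′ on the gene's strand, and capitals mark a match to CCGGAAG, the core that ETS factors such as GABP bind, on either strand.
MRPL11 (chr11:66438849-66438998, minus strand): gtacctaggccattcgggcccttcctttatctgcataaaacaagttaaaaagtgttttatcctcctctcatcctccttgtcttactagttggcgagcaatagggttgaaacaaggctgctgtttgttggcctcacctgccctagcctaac
MRPL48 (chr11:73787724-73787873, plus strand): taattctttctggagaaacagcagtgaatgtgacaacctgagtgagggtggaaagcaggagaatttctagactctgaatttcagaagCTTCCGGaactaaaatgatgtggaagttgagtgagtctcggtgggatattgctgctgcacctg
MRPL3 (chr3:131502972-131503121, minus strand): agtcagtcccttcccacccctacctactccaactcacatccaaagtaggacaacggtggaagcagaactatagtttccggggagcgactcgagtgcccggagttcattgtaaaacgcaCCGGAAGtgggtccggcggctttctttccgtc
MRPS15 (chr1:36464385-36464534, minus strand): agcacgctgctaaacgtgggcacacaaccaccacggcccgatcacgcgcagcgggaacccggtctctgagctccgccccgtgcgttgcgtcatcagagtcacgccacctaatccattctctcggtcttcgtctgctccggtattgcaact
MRPS27 (chr5:72320241-72320390, minus strand): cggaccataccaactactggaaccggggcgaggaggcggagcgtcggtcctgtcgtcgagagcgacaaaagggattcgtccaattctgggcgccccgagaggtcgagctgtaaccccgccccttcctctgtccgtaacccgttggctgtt
MRPL55 (chr1:228109300-228109449, minus strand): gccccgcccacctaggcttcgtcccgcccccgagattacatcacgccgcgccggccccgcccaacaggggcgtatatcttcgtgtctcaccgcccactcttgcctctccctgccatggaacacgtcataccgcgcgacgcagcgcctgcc
MRPS21 (chr1:150293711-150293860, plus strand): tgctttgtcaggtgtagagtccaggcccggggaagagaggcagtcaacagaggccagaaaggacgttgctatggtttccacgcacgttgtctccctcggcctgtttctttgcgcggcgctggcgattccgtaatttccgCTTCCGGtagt
Of the 7 printed windows, those of MRPL48, MRPL3 and MRPS21 hold the ETS core; 2 of these members fell and 1 rose. The sequences of MRPL11 and MRPL55, which moved in opposite directions, hold none of the motifs searched anywhere in the 300 bases. Elsewhere in their windows MRPS15 has TATAAA and MRPS27 has the YY1 motif AANATGGC. MRPS27 shares its promoter region with PTCD2, whose start lies 133 bases away on the other strand.

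Over all 70 windows the ETS core was found in 29 (41.4%, against 14.2% of 15843 protein-coding windows of the same length), and the YY1 motif AANATGGC in 25 (35.7% against 7.92%). The NRF1 motif in its wider form GCGCANGC was found in 23 (32.9% against 16.7%), and as GCGCATGC, which the wider form includes, in 6 (8.57% against 4.26%). At least 1 of these 3 factors' motifs was in 54 windows (77.1% against 32.6%). The E-box CACGTG was in 7 (10.0% against 8.88%) and TATAAA in 3 (4.29% against 9.63%), all on both strands. A protein-coding gene started within 1000 bases on the other strand for 20 members (28.6% against 12.3%). GC content was 61.4% in both. A match describes the letters of a window and is no binding site.

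In quiescent cells no member was called in RNA-seq against cycling cells (0 of 77 by edgeR and 0 by DESeq2; 6 at an unadjusted p under 0.05), where 15.6% of all genes were called (5.18% higher, 10.4% lower). The members leaned down all the same: 63 of 77 log2 fold changes were below 0, with a median of -0.16 against 0.02 over all genes. For 58 of the 77 the 95% interval lay within 1.5-fold either way. In Ribo-seq 6 of 75 fell and 0 rose (8.0% against 21.7% of all genes, 14.6% lower and 7.09% higher), with a median of -0.14 against 0.02. These were MRPL32 (-0.56 ± 0.15), MRPL48 (-0.52 ± 0.15), MRPS28 (-0.50 ± 0.14), MRPS9 (-0.46 ± 0.14), MRPL9 (-0.44 ± 0.11) and MRPS7 (-0.35 ± 0.10), with edgeR adjusted p from 0.0145 to 0.0329. The count was 2, 3 and 1 without cycling replicate 1, 2 and 3, 2 without quiescent replicate 3, and 13 or 11 without thapsigargin replicate 1 or 2; none of the 6 held under every alternative. Without quiescent replicate 2, the library with cycling-like MKI67, the counts were 0 in RNA-seq and 4 in Ribo-seq.

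Against quiescent cells the senescent states showed a different mix of members. In irradiated cells 5 members rose and 3 fell in RNA-seq (10.4% against 18.7% of all genes, 9.01% higher and 9.71% lower), and 4 rose and 3 fell in Ribo-seq (9.33% against 14.5%, 6.92% higher and 7.62% lower). In etoposide cells 12 rose and 8 fell in RNA-seq (26.0% against 41.7%, 21.1% higher and 20.6% lower), and 4 rose and 11 fell in Ribo-seq (20.0% against 35.3%, 19.2% higher and 16.1% lower). MRPL33 (bL33m), which edgeR did not call in either senescent state against cycling cells (DESeq2 called it in etoposide cells in both library types), was at 52.4, 41.5 and 53.1 CPM in quiescent, 68.9, 77.5 and 72.0 CPM in irradiated and 83.6, 79.0 and 77.4 CPM in etoposide RNA-seq. It rose over quiescent cells by 0.57 ± 0.13 and 0.71 ± 0.13 in RNA-seq (edgeR adjusted p = 0.00773 and 0.000701) and by 0.53 ± 0.11 in etoposide Ribo-seq (edgeR adjusted p = 0.00264), under every alternative. MRPS10 footprints were lower than in quiescent cells by a log2 of -0.69 ± 0.15 in irradiated and -0.60 ± 0.14 in etoposide cells (edgeR adjusted p = 0.00609 and 0.00488), and MRPS21 footprints rose by 0.49 ± 0.10 and 0.48 ± 0.10 (edgeR adjusted p = 0.0044 and 0.00219), all under every alternative. In etoposide RNA-seq MRPS12 rose by 0.63 ± 0.17 (edgeR adjusted p = 0.00851) from 39.2, 32.7 and 23.3 CPM to 49.7, 52.6 and 44.9 CPM.

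MRPL55 rose over quiescent cells in etoposide RNA-seq by 0.68 and in Ribo-seq by 0.51, and MRPL11 (-0.65 and -0.78) and MRPL48 (-0.62 and -0.68) fell in both, all under every alternative.

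The counts against quiescent cells depended on single libraries. For irradiated cells the RNA-seq count of 8 was 4 without either cycling library, 3 without quiescent replicate 3, 2, 3 and 3 without irradiated replicate 1, 2 and 3, and 5, 4 and 5 without etoposide replicate 1, 2 and 3. The Ribo-seq count of 7 was 4 without quiescent replicate 2, 3 without irradiated replicate 1, and 21 or 20 without thapsigargin replicate 1 or 2. For etoposide cells the counts were 13 (RNA-seq) and 9 (Ribo-seq) without etoposide replicate 2. Without quiescent replicate 2 they were 6 and 4 for irradiated and 18 and 11 for etoposide cells.

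Compared directly, the 2 senescent states differed in few members. In RNA-seq MRPL45 was higher in irradiated than in etoposide cells (0.33 ± 0.11, edgeR adjusted p = 0.0416) and MRPL17 lower (-0.33 ± 0.10, edgeR adjusted p = 0.0327), 2.60% of members against 22.6% of all genes (9.68% higher, 12.9% lower). In Ribo-seq MRPL24 (0.40 ± 0.12), MRPL45 (0.37 ± 0.11) and MRPS14 (0.36 ± 0.12) were higher (edgeR adjusted p = 0.026 to 0.0398), 4.00% against 21.7% (7.77% higher, 13.9% lower). MRPL45 footprints were at 56.2, 48.0 and 54.3 CPM in irradiated and 39.1, 40.2 and 44.1 CPM in etoposide cells, without overlap. None of these 5 calls held under every alternative: the RNA-seq count ranged from 0 to 4 when 1 library was left out, and the Ribo-seq count was 0 without irradiated replicate 1 or etoposide replicate 2, 1 without irradiated replicate 3 or etoposide replicate 1, and 5 or 6 without thapsigargin replicate 1 or 2.

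Translation efficiency, the footprint change beyond the RNA change, was tested as an interaction of library type and state over all 27 libraries. No member was called in quiescent, irradiated or etoposide cells against cycling cells, where 0.00854%, 0.0512% and 0.0683% of all genes were called (0.00854%, 0.0427% and 0.0256% higher and 0.0%, 0.00854% and 0.0427% lower). At an unadjusted p under 0.05 there were 3, 4 and 5 members, and DESeq2 called 0, 1 and 1 (MRPS5 in both). Members' medians were 0.12, 0.12 and -0.14, against 0.08, 0.07 and -0.03 over all genes. For 33, 29 and 22 of the 75 members the 95% interval lay within 1.5-fold either way, and for the others it reached beyond 1.5-fold. MRPS5 had the highest values in both senescent states (1.62 ± 0.38 in irradiated, 1.41 ± 0.37 in etoposide cells, edgeR adjusted p = 0.159 and 0.261), on RNA-seq levels of 0.594 to 3.07 CPM. Between irradiated and etoposide cells 65 of 75 values were above 0, with a median of 0.23 against 0.09 over all genes, and 0 were called by edgeR or DESeq2 (0.0% of all genes by edgeR; 8 members at an unadjusted p under 0.05). With RLE scaling the median of all genes in that comparison moved by -0.10 and that of members to 0.13.

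In thapsigargin cells, footprints of single members moved far in both directions while few RNA levels did. Their libraries also differ in medium and mapping, and those of Ribo-seq in gene list. In RNA-seq 1 of 77 members rose and 5 fell (7.79% against 24.5% of all genes, 11.7% higher and 12.8% lower, median -0.18 against -0.03). MRPL2 rose (1.12 ± 0.32, edgeR adjusted p = 0.0216, on at most 5.13 CPM) and MRPL23, MRPL33, MRPL16, MRPL51 and MRPS27 fell, MRPL33 by 0.63 ± 0.16 from 62.7 and 63.1 CPM to 46.5 and 34.7 CPM (edgeR adjusted p = 0.0107). The RNA-seq count was 1 without either cycling library, 18 without thapsigargin replicate 1 and 0 without replicate 2, and none of the 6 calls held under every alternative. In Ribo-seq 10 of 75 rose and 22 fell, 42.7% against 44.4% of all genes (20.0% higher, 24.4% lower), a share near the background; 16 of these 32 calls held under every alternative. The RNA-seq and Ribo-seq changes had r = 0.41 across members, and -0.01 over the 67 members at 5 CPM or more (0.16 and 0.39 in quiescent cells).

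Translation efficiency rose for 6 and fell for 10 of 75 members (21.3% against 20.8% of all genes, a share near the background, 7.89% higher and 12.9% lower; 10 in all without cycling RNA-seq replicate 1 and 27 without thapsigargin Ribo-seq replicate 2). MRPS5, MRPS25 and MRPL18 were the 3 calls that held under every alternative. MRPL18 (uL18m, a protein of the central protuberance) was at 134, 130 and 141 CPM in cycling and 264 and 172 CPM in thapsigargin Ribo-seq, and at 72.5 and 64.8 CPM against 57.0 and 44.7 CPM in RNA-seq. Its footprints rose by 0.69 ± 0.14 (edgeR adjusted p = 0.0019) and its translation efficiency by 1.09 ± 0.24 (edgeR adjusted p = 0.00229). MRPL16 footprints (73.9, 78.7 and 76.9 CPM in cycling, 145 and 80.4 CPM in thapsigargin cells) and MRPL44 footprints (91.9, 103 and 85.6 CPM against 196 and 112 CPM) rose with efficiencies of 1.06 ± 0.24 and 1.05 ± 0.24 (edgeR adjusted p = 0.00307 and 0.00398). Both rest on thapsigargin Ribo-seq replicate 1 and were lost without it, and in the fit of these 2 states alone.

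Small-subunit members held several of the low footprint values. MRPS5 (uS5m) footprints were at 70.7, 72.7 and 69.5 CPM in cycling and 0 and 2.61 CPM in thapsigargin cells, and its RNA-seq at 3.07 and 1.66 CPM against 1.34 and 0.808 CPM. In those thapsigargin libraries its Ribo-seq level was thus close to its RNA-seq level in every state, while all 12 Ribo-seq libraries counted on the shorter gene list held at least 61.6 CPM. The fall of 5.72 ± 0.37 (edgeR adjusted p = 1.38e-07) cannot be told apart from the change of gene list. MRPS24 showed the opposite, 4.35, 1.66 and 2.35 CPM in cycling and 20.7 and 21.9 CPM in thapsigargin Ribo-seq (2.95 ± 0.42, edgeR adjusted p = 0.000108), and carries the same limit. MRPS25 (mS25) fell from 24.0, 21.9 and 27.9 CPM to 1.09 and 6.78 CPM, by 2.62 ± 0.42 (edgeR adjusted p = 0.000285), while its RNA-seq stayed at 14.3 and 14.1 CPM in cycling and 13.8 and 12.4 CPM in thapsigargin cells.

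Falls that held under every alternative also came from MRPL40 (-1.30 ± 0.15), MRPS36 (KGD4 in RefSeq; -1.44 ± 0.19) and the stalk protein MRPL10 (-0.98 ± 0.19; edgeR adjusted p = 1.82e-05, 7.35e-05 and 0.00126). MRPL10 footprints were at 49.7, 50.7 and 59.4 CPM in cycling and 32.7 and 21.4 CPM in thapsigargin cells. MRPL34 fell by 1.51 ± 0.37 (edgeR adjusted p = 0.00509), a call lost without thapsigargin replicate 1, and MRPS6 (-1.62 ± 0.61, edgeR adjusted p = 0.0436) stood on at most 7.72 CPM and was lost with the replicate block, in the fit of these 2 states and without thapsigargin replicate 1 or any 1 of 9 other libraries. MRPL47 rose by 0.73 ± 0.12 (117, 114 and 108 CPM to 190 and 186 CPM, edgeR adjusted p = 0.000313) and MRPS21 by 0.63 ± 0.11 (edgeR adjusted p = 0.000659), both under every alternative. MRPL41 rose by 0.97 ± 0.22 (edgeR adjusted p = 0.00277), lost without thapsigargin replicate 1. MRPL23 had 0 counts in both thapsigargin Ribo-seq libraries and a cycling mean of 3.10 CPM; against a floor of 3 counts over the group, 0.80 CPM, it was at least 3.87-fold lower, and the members' median with it at that bound stayed at -0.20.

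**Figure D5:**
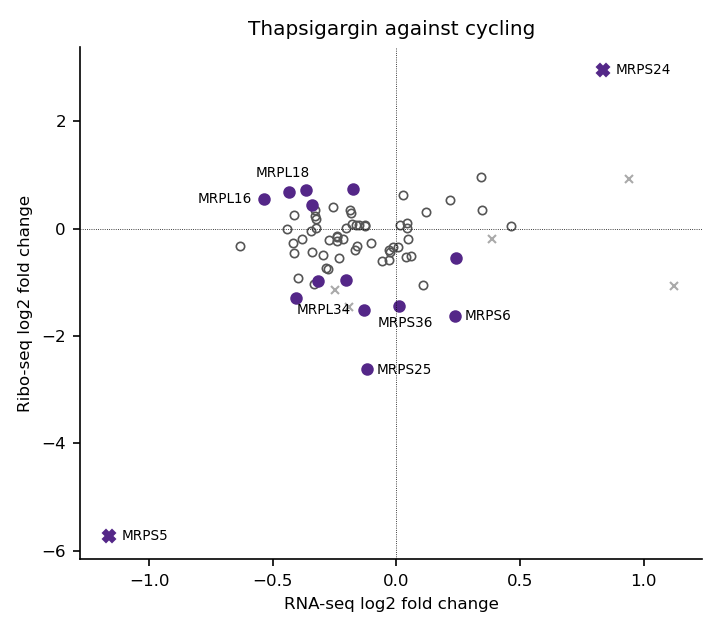
RNA-seq (x axis) against Ribo-seq (y axis) log2 fold change of members in thapsigargin against cycling cells; filled points are members whose translation efficiency was called by edgeR, crosses are members under 5 CPM in either type, and MRPL23, at 0 counts in thapsigargin Ribo-seq, is left out. MRPS5 and MRPS25 lie far below the diagonal and MRPL18, MRPL16 and MRPL44 above it.

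Of the 5 mitoribosome proteins whose symbols do not follow the rule, DAP3 rose in both senescent states. DAP3 (mS29, a GTP-binding small-subunit protein first known for a role in cell death) was at 111 and 113 CPM in cycling, 128, 112 and 125 CPM in quiescent, 150, 171 and 161 CPM in irradiated and 154, 160 and 152 CPM in etoposide RNA-seq. It rose by 0.53 ± 0.10 and 0.47 ± 0.10 in RNA-seq and by 0.42 ± 0.09 and 0.39 ± 0.09 in Ribo-seq (edgeR adjusted p = 0.00153, 0.00317, 0.00322 and 0.00527). PTCD3 footprints fell by 0.45 ± 0.11 in irradiated cells (edgeR adjusted p = 0.00531), and CHCHD1 RNA fell by 0.54 ± 0.14 in quiescent cells (edgeR adjusted p = 0.0215). AURKAIP1 and GADD45GIP1 were not called against cycling cells in any state.

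Some genes that build and serve the mitochondrial ribosome were called, in both directions. Of 31 assembly factors tested in RNA-seq, 4 rose and 1 fell in irradiated and 2 rose and 4 fell in etoposide cells. Of 30 tested in Ribo-seq, 2 rose and 2 fell, and 2 rose and 4 fell, in the same states. All genes were called at 34.9% and 34.5% in RNA-seq and at 39.8% and 34.0% in Ribo-seq, shares above those of this list. The genes named next are single cases, and no list was tested as a set. METTL17, needed for small-subunit assembly, had footprints of 38.4, 39.4 and 41.5 CPM in cycling, 19.5, 20.4 and 21.1 CPM in irradiated and 18.4, 18.5 and 18.6 CPM in etoposide cells (-0.97 ± 0.20 and -1.10 ± 0.20, edgeR adjusted p = 0.00174 and 0.000639). MPV17L2, a membrane protein involved in mitoribosome assembly, rose in footprints by 0.86 ± 0.26 and 1.18 ± 0.25 (edgeR adjusted p = 0.0178 and 0.00273). The elongation factor GFM1 rose in RNA-seq by 0.38 ± 0.12 and 0.43 ± 0.12 (edgeR adjusted p = 0.0244 and 0.0146). TFAM, which packages and transcribes mitochondrial DNA, fell in footprints by 0.90 ± 0.19 and 0.72 ± 0.19 (edgeR adjusted p = 0.00222 and 0.00878). Footprints of the transcription factor NRF1 fell by 0.58 ± 0.16 and 0.53 ± 0.16 (edgeR adjusted p = 0.0111 and 0.017). Its RNA values of -0.14 ± 0.18 and -0.12 ± 0.18 were not called. A call in footprints alone does not show a change in translation efficiency. How the calls in this and the preceding paragraph fared under the alternatives is not given here.

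Nuclear genes of oxidative phosphorylation, whose complexes also contain the products of the mitochondrial ribosome, were more often higher than lower. Of 77 tested in Ribo-seq 27 rose and 5 fell in irradiated cells (median 0.21), where 17.2% of all genes rose and 22.6% fell. In etoposide cells 18 rose and 4 fell (median 0.17), against 16.4% and 17.6% of all genes. In RNA-seq 12 of 80 rose and 1 fell in each state (medians 0.19 and 0.22). The share that rose in RNA-seq was near that of all genes, 16.2% in irradiated and 16.8% in etoposide cells, where 18.8% and 17.8% fell. Called cytosolic ribosomal protein genes fell more often than they rose. In etoposide RNA-seq 0 of 82 rose and 13 fell (median -0.24), against 16.8% and 17.8% of all genes. In irradiated RNA-seq 2 rose and 5 fell (median 0.05), against 16.2% and 18.8%. In etoposide Ribo-seq 2 of 79 rose and 19 fell, against 16.4% and 17.6% of all genes. In irradiated Ribo-seq 7 rose and 11 fell, against 17.2% and 22.6%. The share that fell was above that of all genes only in etoposide Ribo-seq. The difference between these lists and the members was not tested.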

How the data were processed

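RNA-seq (stranded TruSeq libraries) and Ribo-seq (RNase I footprints of 25 to 40 nt, small RNA kit), per the labels' protocols, came as deposited tables of whole-number read counts per gene, 1 per library. Per the submitters' processing notes the tools include STAR 2.7.10b, DESeq2 1.36.0 and bcl2fastq with hg38; other settings are not given in the sources used here. The deposited counts hold unstranded and 2 stranded columns; column 4 was used for RNA-seq and column 3 for Ribo-seq. Symbols, gene types and structural names came from RefSeq tables matched by identifier.

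Counts of protein-coding genes on the identifiers shared by all 27 libraries were filtered with filterByExpr, scaled with TMM and tested with edgeR 4.0.16 (R 4.3.3, quasi-likelihood F test, robust) over all 5 states, leaving 13291 genes in RNA-seq, 11764 in Ribo-seq and 11713 for translation efficiency (biological coefficients of variation 0.159, 0.169 and 0.159). A call is a Benjamini-Hochberg adjusted p under 0.05 over all genes tested. The SE is the log2 fold change divided by the square root of F, and 95% intervals use 1.96 SE. Tested on simulated counts for etoposide against cycling cells, calls were made for 79.7% (RNA-seq), 82.8% (Ribo-seq) and 37.3% (translation efficiency) of genes changed 2-fold, and 24.3%, 31.3% and 7.02% of those changed 1.5-fold. The simulation changed few genes (in RNA-seq 64 by 2-fold and 70 by 1.5-fold, of 13291) and gave all genes the same spread. Far more genes were called in the data, so these rates need not hold there. Counts on features the aligner could not assign stayed out; 6.01% to 13.2% of RNA-seq and 4.95% to 8.32% of Ribo-seq reads were ambiguous between genes.

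Members were named from those with the largest called changes (up to 5 each way against cycling cells, up to 3 in other comparisons). Others came from those called in both library types in both senescent states and from a list fixed by role. Not every member with such a change is named. The members and all lists were chosen with earlier results of these data known. Footprint density per coding length, also planned, is not analysed here. Alternatives (DESeq2 1.42.0, RLE scaling, no low-count filter, the compared groups alone, counts on both strands, a replicate block, each library left out) were run for members.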

Additional observations from a re-analysis of the deposited data

Results flagged for a closer look

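These 5 results stood out because the 2 senescent states differed in the direct contrast of irradiated against etoposide cells (edgeR, adjusted over all genes). The log2 difference, irradiated minus etoposide, was -0.33 for MRPL17 and 0.33 for MRPL45 in RNA-seq. In Ribo-seq it was 0.40 for MRPL24, 0.37 for MRPL45 and 0.36 for MRPS14. MRPL45 is the only member that differed in both library types, in the same direction.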

How the results depend on the processing

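Of 194 member calls, 73 held under every alternative and 0 changed direction; the causes of the losses were not tested. A further 2 choices were added after the data had been seen, a fit of 4 states without thapsigargin and medians over members at 5 CPM or more. Counts below are members called, against cycling cells unless stated, and TE is translation efficiency.

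With counts on both strands the quiescent RNA-seq count was 1. Without thapsigargin it was also 1, and in Ribo-seq the counts were 14 (quiescent), 32 (irradiated), 20 (irradiated against quiescent) and 5 (irradiated against etoposide); TE counts were 1 in irradiated and 1 in etoposide cells, with medians of -0.030 (quiescent), -0.0092 (irradiated) and 0.073 (irradiated against etoposide). With no low-count filter RNA-seq counts were 9 (irradiated), 4 (irradiated against quiescent) and 1 (irradiated against etoposide). Ribo-seq counts were then 2 (quiescent) and 0 (irradiated against etoposide), with medians of -0.10 (quiescent), -0.14 (irradiated), -0.21 (etoposide), -0.27 (thapsigargin), -0.064 (irradiated against quiescent) and -0.098 (etoposide against quiescent); TE medians were 0.0052, -0.022 and -0.096 in quiescent, irradiated and etoposide cells and 0.050 between irradiated and etoposide. In fits of the compared groups alone RNA-seq counts were 27 (irradiated), 0 (thapsigargin), 2 (irradiated against quiescent) and 6 (irradiated against etoposide), Ribo-seq counts 35 (irradiated) and 8 (irradiated against etoposide), and TE counts 2 (irradiated, median -0.013) and 4 (thapsigargin), with a median of 0.056 between irradiated and etoposide cells. DESeq2 gave 4 in RNA-seq and 5 in Ribo-seq between irradiated and etoposide cells, 10 in quiescent and 15 in irradiated against quiescent Ribo-seq, TE counts of 1 (irradiated) and 1 (etoposide), and medians of -0.15 in etoposide Ribo-seq and 0.027, -0.099 and 0.13 for TE in quiescent, etoposide and irradiated against etoposide cells. RLE scaling gave -0.15 in etoposide Ribo-seq and TE medians of 0.027, 0.048, -0.098 and 0.13 in quiescent, irradiated, etoposide and irradiated against etoposide cells. Members at 5 CPM or more had Ribo-seq medians of -0.25 (etoposide) and -0.076 (etoposide against quiescent).

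With 1 library left out at a time, RNA-seq counts ranged 0 to 1 (quiescent), 2 to 19 (irradiated), 9 to 21 (etoposide), 0 to 18 (thapsigargin), 2 to 9 and 13 to 23 (irradiated and etoposide against quiescent) and 0 to 4 (irradiated against etoposide). RNA-seq medians ranged -0.16 to -0.053 (irradiated), -0.20 to -0.11 (etoposide) and -0.28 to -0.066 (thapsigargin). Ribo-seq counts ranged 1 to 13 (quiescent), 12 to 32 (irradiated), 17 to 37 (etoposide), 3 to 21 and 9 to 20 (irradiated and etoposide against quiescent) and 0 to 6 (irradiated against etoposide), and medians -0.15 to -0.10 (quiescent), -0.21 to -0.13 (etoposide), -0.27 to -0.15 (thapsigargin) and -0.085 to -0.012 (etoposide against quiescent). TE counts ranged 0 to 1 (irradiated) and 10 to 27 (thapsigargin), and medians 0.022 to 0.17 (quiescent), -0.011 to 0.18 (irradiated), -0.19 to -0.077 (etoposide), -0.19 to 0.069 (thapsigargin) and 0.098 to 0.28 (irradiated against etoposide).

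The deviations of same-numbered libraries across states correlated above 0.1 in 10 of 23 RNA-seq and 7 of 26 Ribo-seq pairs. Libraries with different numbers did so in 16 of 44 and 5 of 52 pairs. RNA-seq and Ribo-seq libraries of the same state and number did so in 5 of 11 pairs, with r up to 0.61 (cycling cells left out). Whether replicate numbers pair the libraries is thus undecided, and the main fits took them as unpaired. With the replicate block the irradiated against quiescent RNA-seq count was 5, and no other count moved over 1.5 times; the block gave 11 (irradiated) and 19 (etoposide) in RNA-seq and 20 and 27 in Ribo-seq. Depth limits Ribo-seq most in thapsigargin cells, at 1936976 counts in the shallowest library, and TE, where few changes of 1.5-fold were recoverable.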
